A study of Mus musculus with 221 samples.

Results

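The transcription factors Pax6, Emx1, Emx2, Lhx2, Nr2f1, Nr2f2 and Sp8, which pattern the pallium and the areas of the cerebral cortex, were followed in 221 single cells of the mouse medial neocortex. The genes were chosen by name, and all 7 were among the 23152 features of the table that are not spike-ins. The cells came from C57BL/6J embryos at E18.5, shortly before birth, labelled female and untreated, so that no group differs in genotype or treatment. Medial neocortices were dissected, and 8 were pooled for each of 2 suspensions, with 99 of the cells in pool 2 and the rest in pool 1. Cells were captured on the Fluidigm C1, a microfluidic chip that isolates single cells, with no marker or sort named in the labels. The comparisons set progenitors, neurons and interneurons of this tissue beside each other.

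In the embryonic cortex, radial glia divide at the ventricle and give rise to intermediate progenitors, which make excitatory neurons, while inhibitory interneurons are born in the ventral forebrain and migrate in. Pax6, Emx2, Sp8 and Nr2f1 (also called COUP-TFI) are known as graded factors of cortical progenitors that set the position of areas. Emx2 is high in medial and caudal cortex, Pax6 in rostral and lateral, Sp8 rostrally and Nr2f1 caudally. Lhx2 is a LIM-homeodomain factor that gives cells cortical identity and keeps them from becoming hem, and Emx1 is an Emx2 paralog that persists in excitatory neurons. Nr2f2 (COUP-TFII) is best known from the caudal ganglionic eminence and its interneurons, as is Sp8 in interneurons.

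Levels are TPM, transcript shares that are corrected for transcript length and scaled to a total of 1000000 per cell. No value was 0. Each cell has a lowest value, shared by all features without signal and called the floor here, of 1.33 to 2.998 TPM, and a gene was counted as detected in a cell when it lay above it. Between 2146 and 6727 genes were detected per cell. Read numbers are not part of the tables, so the depth is unknown, and a gene at the floor was not detected, which does not show that it was absent. Shares of cells carry 95% intervals by the exact Clopper-Pearson method, and these take in counting error alone.

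Cells were classed by the number of markers detected, with no patterning factor among the markers. Interneuron-like (IN-like) cells had at least 4 of 8 markers such as Gad2, which makes GABA, and Dlx2. Intermediate progenitor-like (IP-like) cells had Eomes, their defining factor, and at least 3 others. Radial glia-like (RG-like) cells had at least 5 of 8 markers such as Hes5, Vim and the glutamate transporter Slc1a3, and excitatory neuron-like (EX-like) cells had at least 4 of 8 markers such as Neurod6 and Tbr1 and no Eomes. This gave 34 RG-like, 23 IP-like, 27 IN-like and 124 EX-like cells, and 13 cells met no rule. In the 2 pools, the RG-like class held 16 and 18 cells, the IP-like 12 and 11, the IN-like 14 and 13 and the EX-like 74 and 50. The median number of genes detected was 4230.5, 4638, 3642 and 4034 in the RG-like, IP-like, IN-like and EX-like class. RG-like cells held a median of 5 excitatory markers, above the EX-like limit of 4. IP-like cells held a median of 2 radial glia markers in pool 1 and 7 in pool 2, so the make-up of this class differed between the pools.

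The progenitor names were checked against neuronal markers and hold only in part. Neurod6, a factor of young excitatory neurons, was above the floor in 33 of 34 RG-like cells (median 800 TPM), in 23 of 23 IP-like, in 25 of 27 IN-like (median 176 TPM) and in 124 of 124 EX-like cells (median 1700 TPM). Clustering on the marker genes, with the 7 factors left out, placed 17 of the 34 RG-like cells with radial glia and the other 17 with excitatory neurons. Neurod6 had a median of 91.1 TPM in the first 17 and 1961 TPM in the other 17, and Hes5 a median of 1457 and 32.6 TPM. Of the 23 IP-like cells 11 clustered as such, 6 with excitatory neurons and 5 with radial glia. The clusters agreed for 24 of 27 IN-like and 120 of 124 EX-like cells. Whether cells that hold markers of 2 classes are mixtures, cells in transition or carriers of free RNA was not tested. In the RG-like class 6 cells lay exactly at the limit of 5 markers, and 13 cells of other classes had 1 marker fewer.

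Detection differed widely among the factors. Lhx2 was detected in 186 of the 221 cells (84.2%, 95% interval 78.7 to 88.7), Nr2f1 in 144 (65.2%), Emx1 in 52.9%, Pax6 in 71 (32.1%), Nr2f2 in 55 (24.9%), Emx2 in 33 (14.9%) and Sp8 in 5 (2.26%). RG-like cells held a median of 3 of the 7 factors, IP-like cells 4, IN-like cells 1 and EX-like cells 3. None of the 7 was detected in 9 of 27 IN-like cells, in 1 of 34 RG-like cells, in 0 of 23 IP-like cells and in 0 of 124 EX-like cells.

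**Figure D1:**
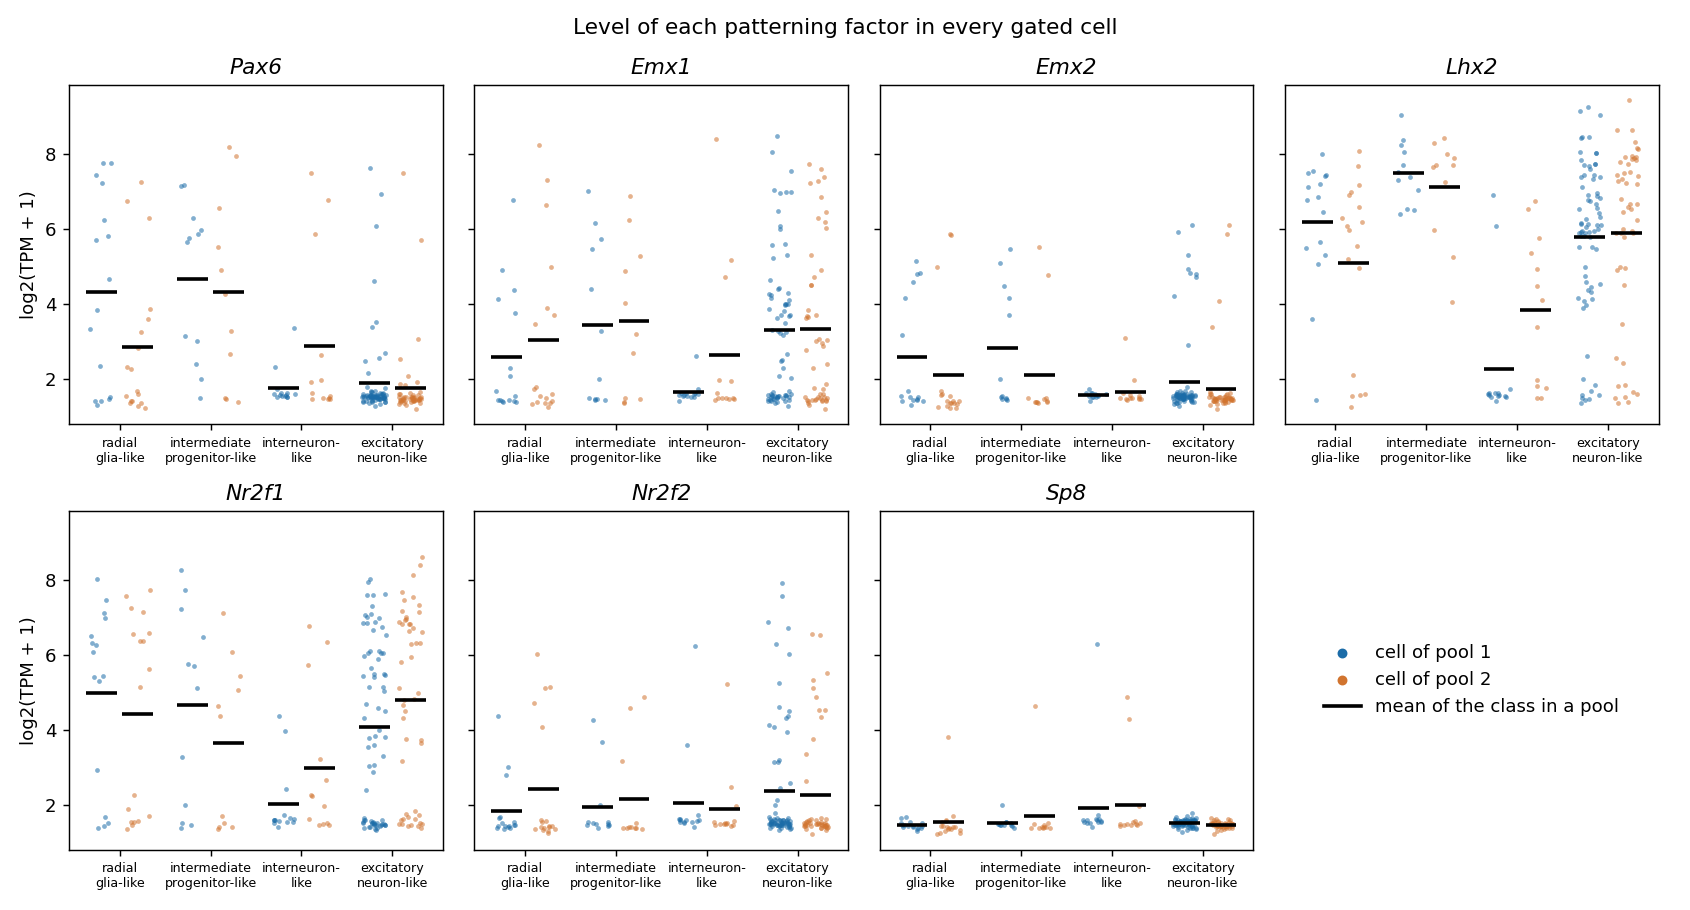
Level of each factor on the log2(TPM + 1) scale (vertical axis) in every classed cell, with pool 1 in blue and pool 2 in orange and a black bar at the mean of each class in each pool. Lhx2 is above the floor in most cells of the RG-like, IP-like and EX-like classes and in 12 of 27 IN-like cells, Pax6 is near the floor in most of the 124 EX-like cells, and Sp8 rises above it in 5 cells.

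For the tests, log2(TPM + 1) was averaged over the cells of a class in each pool, so that the 2 pools are the replicates, and the 8 resulting profiles were fitted with limma over 10718 genes. Calling a gene required a log2 difference of 1 or more in size with an adjusted p under 0.05. Sp8 was detected in fewer than the 10 cells required and was left out, so 6 of the 7 factors were tested. None of the 6 was called in any of the 5 comparisons. Of all genes, 0.056% were called in RG-like against EX-like cells, 0.0% in IP-like against EX-like, 0.616% in IN-like against EX-like, 1.48% in RG-like against IN-like and 0.028% in RG-like against IP-like cells. At an unadjusted p below 0.05, 1, 2, 3, 4 and 1 of the 6 factors passed in these comparisons, in this order, where 8.97%, 11.5%, 7.55%, 14% and 11% of all genes did. The differences below are therefore given as values with their errors, and none of them passed the test unless another processing is named.

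**Figure D2:**
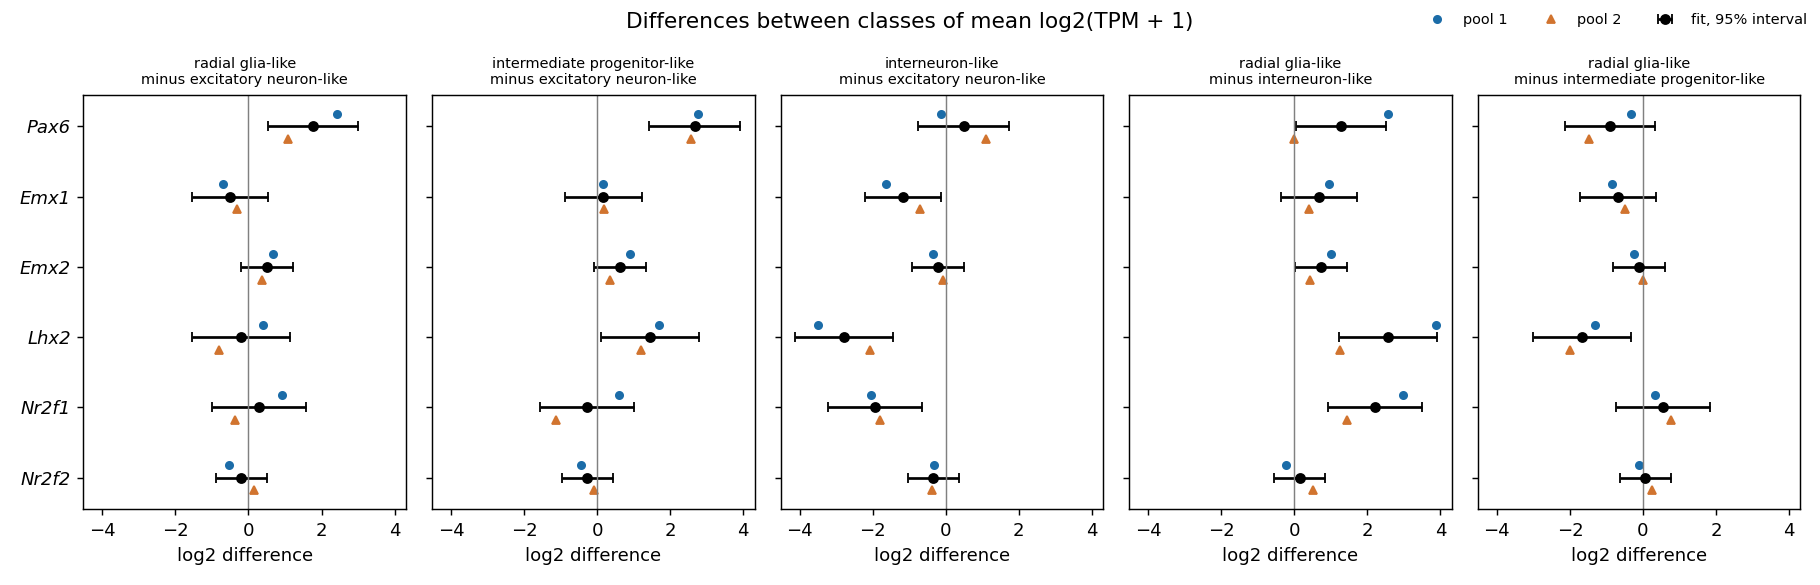
Differences between classes in mean log2(TPM + 1), 1 panel per comparison, for the 6 factors tested, with the fitted difference and its 95% interval in black and the difference within pool 1 (blue circle) and pool 2 (orange triangle). The intervals of Pax6 in both progenitor classes against EX-like cells lie above 0, and those of Emx1, Lhx2 and Nr2f1 in IN-like against EX-like cells below it, before adjustment over genes.

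Pax6, a paired-domain and homeodomain factor of radial glia that comes down as neurons are made, is encoded on chromosome 2 (105668900 to 105697364, plus strand, GRCm38). It was detected in 20 of 34 RG-like cells (58.8%, 40.7 to 75.4), 18 of 23 IP-like cells (78.3%, 56.3 to 92.5), 7 of 27 IN-like cells (25.9%, 11.1 to 46.3) and 20 of 124 EX-like cells (16.1%, 10.1 to 23.8). The median over cells with Pax6 was 37.9 TPM in the RG-like, 51.5 TPM in the IP-like, 9.30 TPM in the IN-like and 5.21 TPM in the EX-like class. These medians differed between the pools, with 55.02 and 11.3 TPM in RG-like cells, 55.6 and 36.9 TPM in IP-like cells, 6.66 and 57.9 TPM in IN-like cells and 9.48 and 3.24 TPM in EX-like cells of pools 1 and 2. In pool 2 the IN-like median, over 5 cells, was above that of both progenitor classes.

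The mean level of Pax6 in pools 1 and 2 was 61.98 and 22.1 TPM in RG-like cells, 50.7 and 67.2 TPM in IP-like cells, 2.68 and 28.5 TPM in IN-like cells and 7.68 and 6.58 TPM in EX-like cells. Both progenitor classes lay above the EX-like class in both pools, whereas the IN-like class lay below it in pool 1 and above it in pool 2. On the log2 scale, the IP-like class exceeded the EX-like class by 2.67 ± 0.58 (SE; 2.77 and 2.56 within pools 1 and 2; limma adjusted p = 0.133). The RG-like class exceeded it by 1.76 ± 0.58 (2.44 and 1.09; limma adjusted p = 0.320). Ordered by level, the IP-like class came first (mean of the pool means 58.9 ± 11.7 TPM, SD, n = 2) and the RG-like second (42.04 ± 28.2 TPM), and these neighbours differed by less than the spread between pools. The IN-like class (15.6 ± 18.3 TPM) and the EX-like class (7.13 ± 0.78 TPM) likewise did not differ beyond it.

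The call on Pax6 depended on the processing. For IP-like against EX-like cells it was called higher in 3 of 15 alternatives, with a log2 difference of 3.96 and a limma adjusted p of 0.0368 when classes were taken from the clusters, where 0.0746% of all genes were called. The other two were profiles weighted by their number of cells and pool and name letter as units, with 0.774% and 0.961% of all genes called. Over all alternatives with a fit, the adjusted p ran between 0.0199 and 0.349 and the difference between 1.56 and 4.09. For RG-like against EX-like cells it was called in 1 of 16, with profiles weighted by their cells (1.71, limma adjusted p = 0.0428, range over the alternatives 0.0428 to 0.684), where 2.5% of all genes were called.

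Emx2 and Emx1 are paralogous homeodomain factors. Emx2 (chromosome 19, 59458372 to 59465357, plus strand) marks dorsal and medial cortical progenitors, and was detected in 9 of 34 RG-like cells (26.5%, 12.9 to 44.4), 7 of 23 IP-like cells (30.4%, 13.2 to 52.9), 1 of 27 IN-like cells (3.70%, 0.0937 to 18.97) and 13 of 124 EX-like cells (10.5%, 5.70 to 17.3). Its mean level in pools 1 and 2 was 9.69 and 9.42 TPM in RG-like cells, 11.8 and 7.90 TPM in IP-like cells, 2.004 and 2.39 TPM in IN-like cells and 5.72 and 4.67 TPM in EX-like cells. In IN-like cells Emx2 was detected in 0 of 14 cells of pool 1, so that mean is the floor alone. In pool 2 it was detected in 1 of 13, at 7.55 TPM. Both progenitor classes lay above both neuronal classes in both pools, at fitted differences on the log2 scale below 1. Against EX-like cells they were 0.51 ± 0.33 in RG-like cells (limma adjusted p = 0.721) and 0.62 ± 0.33 in IP-like cells (adjusted p = 0.514).

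The detection of Emx2 differed within the RG-like class. It was present in 8 of the 17 cells that clustered with radial glia and in 1 of the 17 that clustered with excitatory neurons. Emx1 showed the opposite split, with 6 of 17 and 12 of 17, and Pax6 was found in 13 of 17 and 7 of 17. Lhx2 was found in 15 of 17 cells of each set and Nr2f1 in 14 of 17 and 12 of 17. Among IP-like cells, the 11 that clustered as such all held Pax6 and Lhx2, at medians of 53.4 and 207 TPM. Of the same 11 cells, 7 held Emx1 and 5 held Emx2. These splits describe single cells of 2 pools and were not tested. With cells kept only where the rule and the clusters gave the same class, an alternative chosen after seeing the data, the log2 difference of Emx2 in RG-like against EX-like cells was 1.16 ± 0.44 (limma adjusted p = 0.225) and that of Pax6 2.10 ± 0.60 (adjusted p = 0.102).

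**Figure D3:**
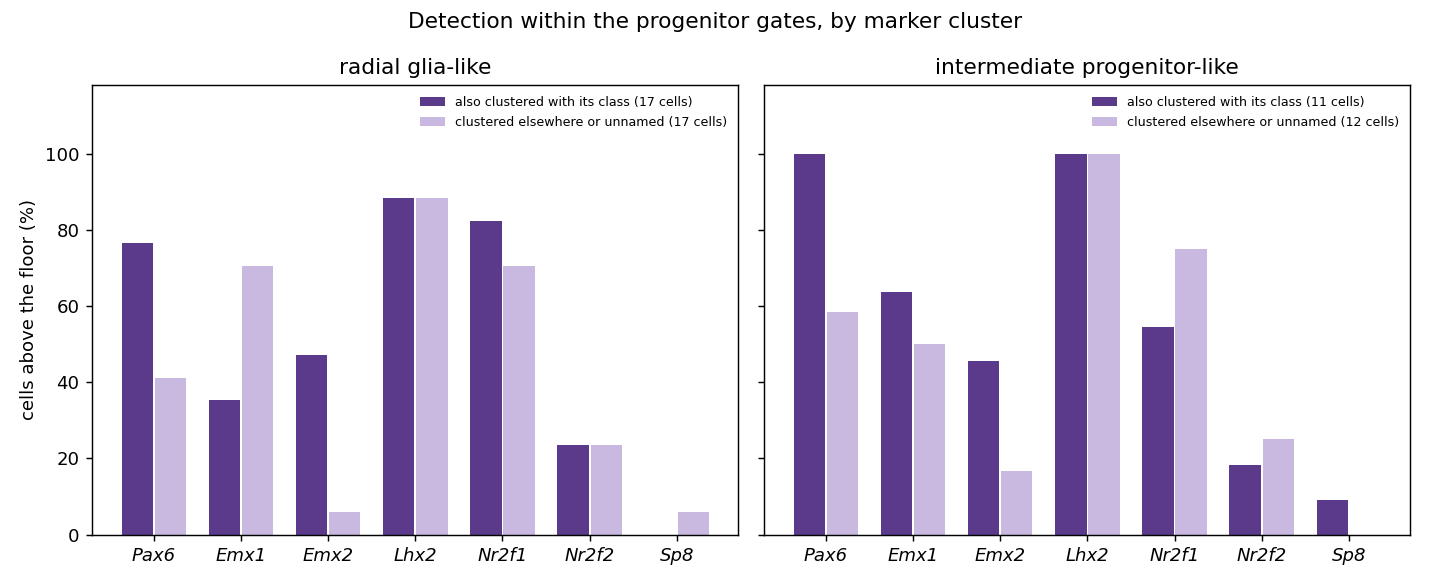
Share of cells above the floor (vertical axis, percent) for each factor in the RG-like (left) and IP-like class (right), split by whether the cell also clustered with its class (dark bars, 17 and 11 cells) or elsewhere (light bars, 17 and 12 cells). Emx2 was found in 8 of 17 RG-like cells of the dark bars and 1 of 17 of the light ones, and Emx1 in 6 and 12.

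Emx1 (chromosome 6, 85187438 to 85204462, plus strand) was detected in 18 of 34 RG-like cells, 13 of 23 IP-like cells, 5 of 27 IN-like cells (18.52%, 6.30 to 38.1) and 76 of 124 EX-like cells (61.3%, 52.1 to 69.9). Its mean level in pools 1 and 2 was 13.1 and 35.7 TPM in RG-like cells, 28.1 and 26.8 TPM in IP-like cells, 2.23 and 32.01 TPM in IN-like cells and 28.7 and 31.6 TPM in EX-like cells. The IN-like mean of pool 2 rests on 4 of 13 cells, the highest at 335 TPM. On the log2 scale, which weighs that cell less, the IN-like class was at 2.15 and the EX-like class at 3.33, a difference of -1.18 ± 0.49 (-1.65 and -0.71 within pools 1 and 2; limma adjusted p = 0.560). The RG-like range took in those of the IP-like and EX-like classes. The IP-like class lay below the EX-like class in both pools by mean TPM and above it on the log2 scale.

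Lhx2 (chromosome 2, 38339281 to 38369733, plus strand) was the most widely detected factor. It was above the floor in 30 of 34 RG-like cells (88.2%, 72.5 to 96.7), 23 of 23 IP-like cells (100%, 85.2 to 100), 12 of 27 IN-like cells (44.4%, 25.5 to 64.7) and 90.3% of the 124 EX-like cells (83.7 to 94.9). The median over cells was 74.4 TPM in the RG-like class (highest 267), 199 TPM in the IP-like class (highest 520), 2.35 TPM in the IN-like class (highest 120) and 73.03 TPM in the EX-like class (highest 687). The mean level in pools 1 and 2 was 108.5 and 75.3 TPM in RG-like cells, 210 and 184 TPM in IP-like cells, 15.1 and 29.2 TPM in IN-like cells and 113.001 and 134 TPM in EX-like cells. The IP-like class was the highest and the IN-like class the lowest in both pools. RG-like cells lay below EX-like cells in both pools by mean TPM, whereas on the log2 scale they lay above them in pool 1 and below them in pool 2.

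On the log2 scale, Lhx2 in IN-like cells differed from that in EX-like cells by -2.78 ± 0.62 (-3.51 and -2.06 within pools 1 and 2; 95% interval -4.12 to -1.44; limma adjusted p = 0.0716). It was called lower in 2 of 16 alternatives, with profiles weighted by cells (-2.80, adjusted p = 0.0050) and with pool and name letter as units (-2.39, adjusted p = 0.0413), and the adjusted p over all of them ran up to 0.458. Of all genes, 1.75% and 1.04% were called under these settings. RG-like cells exceeded IN-like cells by 2.58 ± 0.62 (3.89 and 1.26; limma adjusted p = 0.0629). This difference was called higher in 5 of 16 alternatives, among them the use of cells with at least 3000 genes detected (2.65, adjusted p = 0.0365) and of clusters as classes (3.12, adjusted p = 0.0273), with a range of adjusted p from 0.0273 to 0.132. Of all genes, 1.58% and 5.62% were called under these settings, and 2.0%, 1.95% and 4.67% under quantile normalization, with pool and name letter as units and with the cells on which rule and clusters agreed. IP-like cells exceeded EX-like cells by 1.46 ± 0.62 (1.71 and 1.21; limma adjusted p = 0.388), and RG-like cells differed from IP-like cells by -1.66 ± 0.62 (-1.32 and -2.01; adjusted p = 0.346).

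The 2 pools differed in Lhx2 among IN-like cells, with detection in 2 of 14 cells of pool 1 and 10 of 13 of pool 2. Emx1, Pax6 and Nr2f1 went the same way, in 1, 2 and 3 of the 14 cells and in 4, 5 and 7 of the 13 cells. The excitatory marker Neurod6 was detected in 12 of the 14 and 13 of the 13 cells, with a median of 245 and 95.2 TPM, and the 8 radial glia markers summed to a median of 55.8 and 443 TPM. The median number of genes detected was 3306 in pool 1 and 3682 in pool 2. IN-like cells with Lhx2 held a median of 4 excitatory markers that summed to 614 TPM (154 to 1354), against 2 markers and 380 TPM (23.3 to 1816) in those without it, and Neurod6 had a median of 223 and 5.78 TPM. The cells with Lhx2 also had more genes detected, a median of 3893.5 against 3144. Nr2f1 and Emx1 went with Lhx2 here. The median excitatory sum was 599 TPM in cells with Nr2f1 and 380 TPM in those without, with Neurod6 at 319 and 10.3 TPM. For Emx1 the sums were 1112 and 377 TPM, with Neurod6 at 675 and 56.4 TPM. Cells with either factor also had more genes detected, at 3782 against 3468 for Nr2f1 and 4271 against 3297.5 for Emx1. Pax6 lay the other way, with an excitatory sum of 373 TPM in the 7 cells with it and 441 TPM in the 20 without. Its Neurod6 medians were 95.2 and 220 TPM, while the median number of excitatory markers was 3 in both sets. Cells with Pax6 still had more genes detected, a median of 3882 against 3555. The part of excitatory neuron RNA in the detection of these factors in IN-like cells was not tested.

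**Figure D4:**
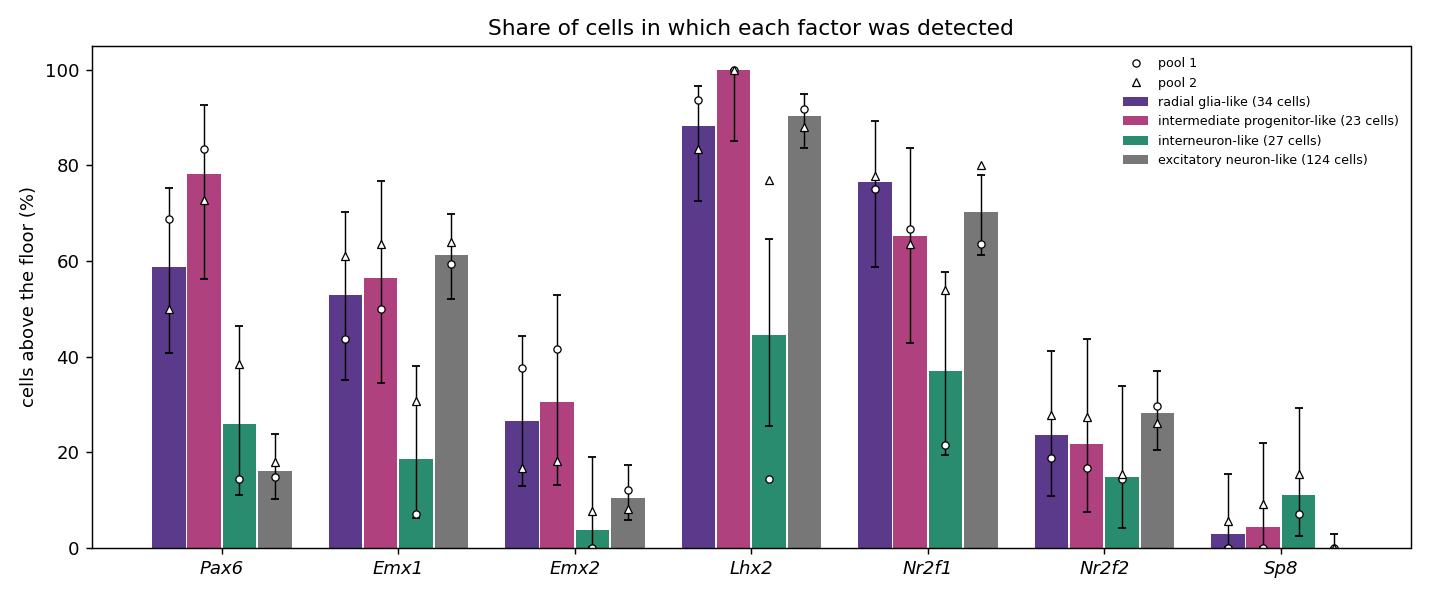
Share of cells above the floor (vertical axis, percent) for each factor in the 4 classes (bars, with exact 95% intervals) and in each pool (open circles for pool 1, open triangles for pool 2). In IN-like cells the pools lie far apart for Lhx2, with 2 of 14 and 10 of 13 cells, while all 23 IP-like cells hold it.

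Nr2f1 and Nr2f2 are orphan nuclear receptors of the COUP-TF family. Nr2f1 (chromosome 13, 78188973 to 78199757, minus strand) was detected in 26 of 34 RG-like cells (76.5%, 58.8 to 89.3), 15 of 23 IP-like cells (65.2%, 42.7 to 83.6), 10 of 27 IN-like cells (37.04%, 19.4 to 57.6) and 87 of 124 EX-like cells (70.2%, 61.3 to 78.04). Its mean level in pools 1 and 2 was 71.4 and 63.5 TPM in RG-like cells, 75.6 and 30.2 TPM in IP-like cells, 4.33 and 21.1 TPM in IN-like cells and 46.8 and 74.6 TPM in EX-like cells. The IN-like class was the lowest in both pools, and the ranges of the other 3 overlapped. On the log2 scale it differed from the EX-like class by -1.93 ± 0.60 (-2.05 and -1.80; limma adjusted p = 0.283), with no call in 16 alternatives. The RG-like class exceeded it by 2.21 ± 0.60 (2.98 and 1.44; limma adjusted p = 0.0974). That difference was called in 1 of 16 alternatives, which left out RG-like cells with 100 TPM of Neurod6 or more (2.82, adjusted p = 0.0445), was chosen after seeing the data and rests on 7 RG-like cells of pool 2. The RG-like cells of pool 1 numbered fewer than the 4 required and were dropped, so the lone RG-like profile was assumed to vary like the other classes. Under that setting 7.4% of all genes were called.

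Nr2f2 (chromosome 7, 70351944 to 70366735, minus strand) was detected in 8 of 34 RG-like cells, 5 of 23 IP-like cells, 4 of 27 IN-like cells and 35 of 124 EX-like cells (28.2%, 20.5 to 37.01). Its mean level in pools 1 and 2 was 3.51 and 10.8 TPM in RG-like cells, 4.12 and 6.58 TPM in IP-like cells, 7.87 and 4.82 TPM in IN-like cells and 14.8 and 9.77 TPM in EX-like cells. The IP-like and IN-like means lay below the EX-like mean in both pools, and the RG-like range overlapped that of the other 3 classes. Differences on the log2 scale lay between -0.34 and 0.15 over the 5 comparisons, with a 95% interval from -1.03 to 0.35 for the lowest of them (IN-like against EX-like cells) and intervals of the same width for the others. Among the 35 EX-like cells with Nr2f2, the level ran from 1.75 to 240 TPM with a median of 19.6 TPM.

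Sp8 (chromosome 12, 118846329 to 118852576, plus strand), a zinc-finger factor of the Sp family, was above the floor in 5 cells. They were 1 of 34 RG-like cells at 13.1 TPM, 1 of 23 IP-like cells at 23.8 TPM and 3 of 27 IN-like cells at 18.46, 28.5 and 76.8 TPM. It was found in 0 of 124 EX-like cells, which allows a share of up to 2.93%. The 3 IN-like cells lacked Lhx6, the factor of medial ganglionic eminence interneurons, which was detected in 19 of the 27. Of these 3 cells, 2 also held Nr2f2 (75.01 and 36.7 TPM), Prox1 (199 and 2.68 TPM) and Adarb2 (115.5 and 379 TPM), all 3 known from interneurons of the caudal ganglionic eminence. The other one held Pax6 at 57.9 TPM and none of the 3. Genes of all 3 eminence lists were found in these cells. Of the 14 caudal genes 8 were detected in at least 1 of them, but not Vip, Calb2 or Cxcl14, beside 4 of the 13 medial genes (Erbb4 in 2 cells, Nxph1 and Maf in 1 each) and 6 of the 10 lateral genes (Pbx3, Tshz1 and Meis2 in 2 each). Nr2f2, Prox1 and Adarb2 were singled out after their values were seen. Among the 8 IN-like cells without Lhx6, 3 held Sp8 and 2 held Nr2f2, and among the 19 with Lhx6, 0 and 2 did.

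Promoter sequence is shown for Lhx2, the most widely detected factor, Pax6, the factor with the largest difference between progenitor-like and EX-like cells, and Sp8, the least detected. Each is the 250 bases before the first RefSeq start of the gene (GRCm38.p6), written 5′ to 3′ on the gene's strand. The windows are chr2:38339031-38339280, chr2:105668646-105668895 and chr12:118846079-118846328, all on the plus strand. Capitals mark letters found on either strand that spell GGGCGG (the GC box, bound by Sp family factors), TAATTA (a homeodomain core), AGGTCA (a nuclear receptor half-site), CCAAT or TATAAA.
Lhx2: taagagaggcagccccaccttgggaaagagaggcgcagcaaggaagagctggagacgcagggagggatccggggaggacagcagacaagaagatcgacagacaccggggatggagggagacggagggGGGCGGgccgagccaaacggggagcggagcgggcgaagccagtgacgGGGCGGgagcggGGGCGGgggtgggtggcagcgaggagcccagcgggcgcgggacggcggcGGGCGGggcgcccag
Pax6: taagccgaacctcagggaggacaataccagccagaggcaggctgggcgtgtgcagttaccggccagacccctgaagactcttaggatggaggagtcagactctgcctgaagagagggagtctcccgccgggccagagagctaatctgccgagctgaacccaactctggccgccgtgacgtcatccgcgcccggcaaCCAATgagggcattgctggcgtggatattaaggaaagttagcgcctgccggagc
Sp8: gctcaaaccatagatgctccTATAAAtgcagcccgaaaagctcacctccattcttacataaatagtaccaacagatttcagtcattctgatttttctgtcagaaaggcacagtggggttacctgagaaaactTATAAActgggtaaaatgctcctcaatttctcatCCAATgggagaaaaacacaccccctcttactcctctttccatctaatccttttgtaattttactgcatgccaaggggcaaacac
The Lhx2 window is 72.8% GC and holds 4 GC boxes. The Pax6 window is 60.8% GC with a CCAAT box, and the Sp8 window 40.8% GC with a CCAAT box and 2 TATAAA runs. Over 32851 RefSeq windows of the same length, the median was 52.4% GC, and 32.7% hold GGGCGG, 33.8% CCAAT, 12.4% TATAAA, 14% AGGTCA and 4.84% TAATTA. The motifs do not overlap each other in the 3 windows shown, and a match of letters is a description only.

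Reads were not stated to keep their strand, so RNA of an antisense neighbour cannot be told apart from that of the factor where the 2 overlap. The antisense gene A830082K12Rik, which overlaps Nr2f1, was listed above the floor in 69 cells, and 46 of them also held Nr2f1. Emx2os was detected in 12 cells, 4 of them with Emx2, B130024G19Rik in 6 cells, 5 of them with Nr2f2, and Pax6os1 in 2 cells, both with Pax6.

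The factors were found together in patterns that the sparse data allow only to be counted. Of the 9 RG-like cells with Emx2, 8 held Pax6, all 9 held Lhx2 and all 9 held Hopx, a small homeodomain protein of radial glia in the study's title, which was detected in 24 of the 34 cells. Lhx2 was also in 84% of the RG-like cells without Emx2. Of the 20 with Pax6, 8 held Emx2, against 7.14% of those without Pax6. Emx1 was found in 8 of these 20 cells, against 71.4% of the RG-like cells without Pax6. These RG-like counts pool the 17 cells that clustered with radial glia and the 17 that clustered with excitatory neurons. The former and the latter held Pax6 in 13 and 7 cells, Emx2 in 8 and 1 and Emx1 in 6 and 12. Joint detection was not counted within each set. All 7 IP-like cells with Emx2 held Pax6, and 12 of the 13 with Emx1 did, where 78.3% of all IP-like cells held Pax6. In EX-like cells, 30 of the 35 with Nr2f2 also held Nr2f1, which is 34.5% of the 87 with Nr2f1. Of the EX-like cells without Nr2f1, 13.5% held Nr2f2. Emx1 was in 18 of the 20 EX-like cells with Pax6 and in 55.8% of those without it. In IN-like cells, all 5 with Emx1 held Lhx2 and 4 held Nr2f1, against 31.8% and 27.3% of those without Emx1.

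Over the 221 cells, the genes whose log2(TPM + 1) followed each factor most closely among 9318 genes detected in at least 20 cells are given as a description, since cells share pool and depth. For Pax6 they were Slco1c1 (Pearson r 0.50), Rnd3 (0.49) and Ezr (0.47). For Emx2 they were Pax6 itself (0.40), Ptprg (0.39) and B3galtl (0.34). For Lhx2 they were Rasgef1b (0.44), the nuclear factor gene Nfib (0.41) and Cdk2ap1 (0.40). Emx1 followed the excitatory marker Tbr1 (0.36), which was used in the classes, then Zfp119a (0.28) and Pex13 (0.27). The values for Nr2f1 (Ankrd32, 0.28, Mpv17l2, 0.27, Btbd9, 0.27) and Nr2f2 (Sirt1, 0.29, Spnb2, 0.27) were as weak. Those for Sp8 (Dlx1, a class marker, 0.50, Fam5b, 0.45, Nrxn3, 0.37) rest on 5 cells.

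Other genes were described from 11 lists, which cover pallial patterning, cofactors and relatives of the factors, and the ventral forebrain and its interneurons. In the comparisons of either progenitor class with EX-like cells, and of the 2 progenitor classes with each other, no gene of any list was called. The dorsal and medial pallium list had 7 of its 18 genes tested, with a median log2 difference of 0.70 in RG-like against EX-like cells, where the median of all genes was -0.06. The 5 of 18 patterning centre ligands that were tested had a median of 0.31, and the 15 of 20 receptors and feedback genes 0.24. In IP-like against EX-like cells the medians of these 3 lists were 0.31, -0.10 and 0.11, where that of all genes was 0.11. In IN-like against EX-like cells, none of these 3 lists, of 9 LIM cofactors and of 13 nuclear receptor and corepressor genes was called either. In RG-like against EX-like cells, the medians of the area-graded, LIM cofactor and nuclear receptor lists were below that of all genes, at -0.22, -0.41 and -0.16.

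Of 21 area-graded genes of cortical neurons tested, Id2, an inhibitor of helix-loop-helix factors, was lower in IN-like than in EX-like cells (log2 difference -2.90 ± 0.45, limma adjusted p = 0.0069). Id2 was higher in RG-like than in IN-like cells (2.02 ± 0.45, adjusted p = 0.0413), and Bcl11b, a factor of deep-layer neurons and interneurons, was lower there (-1.93 ± 0.32, adjusted p = 0.0085). Of all genes, 1.48% were called in RG-like against IN-like cells. Among 6 relatives of the factors tested, Lhx6, a LIM-homeodomain relative of Lhx2, was higher in IN-like than in EX-like cells (4.49 ± 0.45, limma adjusted p = 0.0005), as was Sp9, the closest relative of Sp8 (1.63 ± 0.28, adjusted p = 0.0142). Sp9 was detected in 10 of 27 IN-like and 2 of 124 EX-like cells. Of the 10 medial eminence genes tested, 4 were higher in IN-like than in EX-like cells, namely Lhx6, the neuregulin receptor Erbb4 (3.17 ± 0.34), Maf (2.33 ± 0.32) and Nxph1 (4.91 ± 0.69). Of the 9 caudal eminence genes, 3 were, namely Sp9, Adarb2 (1.13 ± 0.24) and Npas3 (1.74 ± 0.37). Of all genes, 0.616% were called in IN-like against EX-like cells. Sp9, Erbb4 and Adarb2 were detected in 12, 21 and 14 cells of the whole set, of which 10, 17 and 6 were IN-like. They passed the filter of at least 10 cells only with the IN-like cells counted. Their calls in that class are therefore not independent of the filter. Of 7 lateral eminence genes none was called.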

How the data were processed

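The authors' deposited table gives TPM for 23244 features in 221 cells. Per the labels' protocols, cDNA was made with the SMARTer v4 kit on the Fluidigm C1 and libraries with Nextera XT. The submitters' processing notes name TopHat2 2.0.14, Bowtie2 2.2.6, Cufflinks 2.2.1 and mm10, with no role or order. All 92 spike-ins lie at the floor.

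From these values, classes were set by marker counts, and log2(TPM + 1), averaged over the cells of each class within a pool, was compared with limma 3.58.1 in R 4.3.3 (trend, robust, two-sided, Benjamini-Hochberg adjustment). All 4 classes entered 1 fit of 8 profiles with 4 residual degrees of freedom. Genes detected in at least 10 cells were kept, without class markers and spike-ins. Cells of a pool share 8 animals' tissue, so pools, not cells, are replicates. The pool number pairs the classes by design, although deviations from the class means correlated by only -0.0326 to 0.0416, and pool was left out of the fit. Each class needed at least 4 cells per pool. Clusters came from Ward linkage on 10 principal components of marker genes, divided into 10 groups.

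The members and lists were chosen with earlier results of these data known. Named were all 7 factors, for each the 3 genes of highest r, and in each list up to 4 called genes by adjusted p and relatives of the factors. Some genes that these rules name are not reported here. Gene positions are from GENCODE M21. Proteins were not used here.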

Additional observations from a re-analysis of the deposited data

How the results depend on the processing

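None of the 6 factors tested was called in the comparisons as reported, and an alternative called 1 factor, in place of 0, in 12 cases. Weighting profiles by their cells called 1 (Pax6) in RG-like and 1 (Pax6) in IP-like against EX-like cells, and 1 (Lhx2) in IN-like against EX-like cells. Taking pool and name letter as units, which treats cells of the same animals as separate, called 1 factor each in IP-like and IN-like against EX-like and in RG-like against IN-like cells. Clusters as classes called 1 in IP-like against EX-like and 1 in RG-like against IN-like cells. In RG-like against IN-like cells, quantile normalization, cells with at least 3000 genes, the cells on which rule and clusters agreed, and leaving out RG-like cells with 100 TPM of Neurod6 or more also called 1 each. The last 2 settings were chosen after seeing the data. The cause of these shifts was not tested. Of 5 comparisons, RG-like against IP-like had no alternative that called a factor. The number of all genes called ran from 0 to 601 in RG-like against EX-like, from 0 upward in IP-like against EX-like (0.961% of all genes at most), 0 to 188 in IN-like against EX-like, 2 to 793 in RG-like against IN-like and 0 to 295 in RG-like against IP-like cells.

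With the pool as a replicate block, the factors called remained 0 in every comparison, and all genes called numbered 4, 0, 73, 157 and 2 in the same order, against 6, 0, 66, 159 and 3 without it. Leaving out a pool leaves 1 profile a class and no test, so no count was made. Leaving out cells with 4 markers of another class kept too few IP-like cells for their comparisons. It also left a profile of IN-like cells for pool 1 alone, assumed to vary like the other classes, as was the lone RG-like profile without Neurod6-rich cells.

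Of 523 single differences recomputed, 25 had the other sign, all of them uncalled. Leaving out a pool gave, on the log2 scale and from lowest to highest, -0.802 and 0.388 for Lhx2, -0.36 and 0.926 for Nr2f1 and -0.535 and 0.15 for Nr2f2 in RG-like against EX-like cells, and -1.136 and 0.594 for Nr2f1 in IP-like against EX-like cells. It gave -0.122 and 1.102 for Pax6 in IN-like against EX-like cells, -0.014 and 2.559 for Pax6 and -0.22 and 0.515 for Nr2f2 in RG-like against IN-like cells, and -0.232 and 0.004 for Emx2 and -0.106 and 0.247 for Nr2f2 in RG-like against IP-like cells. With a looser rule for classes, Lhx2 was at 0.04 and Nr2f2 at 0.117 in RG-like against EX-like cells, and Emx1 at -0.177 in IP-like against EX-like cells. With clusters, Lhx2 was at 0.033 in RG-like against EX-like, Pax6 at -0.115 in IN-like against EX-like and Nr2f2 at -0.154 in RG-like against IN-like cells. With letters as units Lhx2 was at 0.176 in RG-like against EX-like cells. Without RG-like cells rich in Neurod6, Nr2f2 was at 0.618 against EX-like and Emx2 at 0.035 against IP-like cells. For Emx1 in IP-like against EX-like cells, the log2 of the mean TPM gave -0.129 and quantile normalization -0.135, and quantile normalization also gave 0.001 for Emx2 in RG-like against IP-like cells. Without cells holding markers of another class, Pax6 was at -0.007 in IN-like against EX-like and Nr2f2 at -0.415 in RG-like against IN-like cells. A stricter rule put this Nr2f2 difference at -0.141, and the agreement of rule and clusters at -0.018. The sizes of the classes moved beyond their intervals in 4 of 12 recomputations.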

Other observations

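The 13 cells that met no marker rule were in no comparison. Lhx2 was detected in 9 of them (10.4 to 505 TPM), Nr2f1 in 6 (105.4 to 416 TPM), Pax6 in 6 (2.16 to 258 TPM), Emx1 in 5 (2.17 to 110 TPM), Emx2 in 3 (54.8 to 114.7 TPM), Nr2f2 in 3 (1.87 to 3.73 TPM) and Sp8 in 0. The highest single values of Emx2 (114.7 TPM) and Nr2f1 (416 TPM) in the whole set were in these cells. The 13 cells held a median of 1433 TPM of Neurod6 in pool 1 and 2324 TPM in pool 2. They also held a median of 3 intermediate progenitor markers. Eomes was detected in 36 of the 221 cells, with 4 RG-like, 23 IP-like, 2 IN-like and 0 EX-like cells among them. The rest were cells that met no rule. Of the 11 cells with both Eomes and Emx2, 1 was RG-like, 7 were IP-like and the rest met no rule.

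Some further genes of the interneuron lists were counted in the 27 interneuron-like cells by Lhx6 detection. Nxph1, a secreted ligand, was detected in 16 of 19 cells with Lhx6 and 2 of 8 without, Sst, which encodes somatostatin, in 11 and 1, Satb1 in 13 and 2, and Npy in 10 and 1. Maf, another medial eminence gene, differed less, with 14 of 19 cells with Lhx6 and 4 of 8 without. Adarb2 was detected in 1 of 19 cells with Lhx6 and 5 of 8 without, and the serotonin receptor gene Htr3a in 0 and 3. These are counts over cells and were not tested.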
